A study of Mus musculus with 6 samples.

Results

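The data describe 6 transcription factor genes that relay the circadian clock to other genes: Nfil3, Dbp, Tef, Hlf, Bhlhe40 and Bhlhe41. All 6 were found among the 24421 gene symbols of the deposited tables by their symbols, and all 6 had enough counts for testing. The set was chosen by name with results of the same comparison already known, Nfil3 being among its largest rises, so the values of the 6 genes are a description and carry no test. The cells were primary mouse liver sinusoidal endothelial cells of wild genotype, the fenestrated endothelium of the liver's capillaries, picked from dissociated livers with beads against the endothelial surface protein CD146, kept overnight on collagen I and deprived of serum for 6 h. The 3 pressure samples were then exposed for 8 h to periodic pressure, between 101 and 135 kPa in absolute terms, at a frequency of 0.01 Hz. The 3 control samples carry no label for their handling or duration over those hours, so culture time and pressure cannot be told apart. No time series was sampled, and no label says whether both groups were harvested at the same time. A difference in harvest time, a shift in the phase of a rhythm and a change in its level therefore cannot be told apart either.

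NFIL3 (also called E4BP4) is a basic leucine zipper repressor that binds D-boxes, the same DNA element through which the related activators DBP, TEF and HLF raise transcription. In mouse liver the activator genes, Dbp above all, are rhythmically driven by the CLOCK and BMAL1 heterodimer, and Nfil3 is held down by the nuclear receptor REV-ERBα, so repressor and activators peak at opposite times of day. BHLHE40 and BHLHE41 (DEC1 and DEC2) are basic helix-loop-helix repressors that bind E-boxes and oppose CLOCK and BMAL1 there.

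The promoters of Nfil3 and Dbp are shown first because these genes lay furthest apart in the comparison, and the E-box or cAMP response element matches of the other genes are shown because these are the elements through which clock and stress factors are known to act. Windows run from 250 bases before to 50 bases after each RefSeq gene start in GRCm38.p6, and 5 of the 6 members have one (6 windows, since Tef has 2 starts). Sequences are 5′ to 3′ on the gene's strand, and capitals mark a match to one of 5 motifs searched on both strands: the D-box TTANGTAA, the E-box CACGTG, the variant E-box CACGTT, the cAMP response element TGACGTCA and the C/EBP element TTGCNNAA. No motif searched overlaps another in the matches found.
Nfil3, chr13:52980990-52981289, minus strand: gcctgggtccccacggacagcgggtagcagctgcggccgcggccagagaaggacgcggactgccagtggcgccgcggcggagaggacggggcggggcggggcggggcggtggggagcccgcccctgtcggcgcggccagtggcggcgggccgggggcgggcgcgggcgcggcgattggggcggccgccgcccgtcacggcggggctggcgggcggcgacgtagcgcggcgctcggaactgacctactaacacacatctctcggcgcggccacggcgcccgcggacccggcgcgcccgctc
Dbp, chr7:45704997-45705296, plus strand: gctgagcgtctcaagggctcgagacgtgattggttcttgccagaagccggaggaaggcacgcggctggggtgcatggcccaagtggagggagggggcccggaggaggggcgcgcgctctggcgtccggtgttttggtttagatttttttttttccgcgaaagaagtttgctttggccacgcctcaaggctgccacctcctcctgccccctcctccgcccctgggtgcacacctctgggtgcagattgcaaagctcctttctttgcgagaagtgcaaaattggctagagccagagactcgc
Tef, upstream start, chr15:81802520-81802579, plus strand: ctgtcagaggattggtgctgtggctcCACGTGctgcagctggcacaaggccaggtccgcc
Tef, downstream start, chr15:81811250-81811309, plus strand: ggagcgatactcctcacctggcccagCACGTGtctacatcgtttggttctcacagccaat
Bhlhe41, chr6:145865540-145865599, minus strand: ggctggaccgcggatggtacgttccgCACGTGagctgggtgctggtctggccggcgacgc
Hlf, chr11:90390893-90390952, minus strand: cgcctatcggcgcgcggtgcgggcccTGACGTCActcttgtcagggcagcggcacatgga

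The Nfil3 and Dbp windows held none of the 5 motifs and are therefore in lower case throughout. They differed in base composition, with 81.7% G and C in the Nfil3 window and 60.3% in the Dbp window. Both Tef windows and the Bhlhe41 window held 1 E-box each, starting at positions -127 and -138 from the Tef starts and -153 from the Bhlhe41 start. The Hlf window held a cAMP response element at position -9. Among 32851 RefSeq windows of the same length, 7.15% held the E-box, 1.79% the cAMP response element, 2.32% the D-box, 4.68% the variant E-box and 10.8% the C/EBP element. A match is a match of letters and not a bound site.

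Libraries held between 12922959 and 18655749 deposited counts, and 12892 genes were tested. Levels are given as CPM, that is, counts relative to the library total after correction by the TMM factor for composition. Log2 fold changes set pressure over control and carry the standard error (SE) from edgeR's model. Replicate 3 of the pressure group was the least like its group: its log2 CPM correlated with theirs at 0.9868 and 0.9894 over genes, against 0.9941 between the other two. Beside these samples, 68.8% of all genes tested passed an adjusted p of 0.05 (edgeR's quasi-likelihood test with Benjamini-Hochberg adjustment), 33.7% higher and 35.1% lower under pressure, and the groups did not overlap for 71.9%. Of the 6 members, 5 passed as higher and 1 as lower, and 5 did not overlap. Because the set was chosen with this comparison known, nothing is read from these counts. With library totals in place of TMM factors 3129 genes were higher and 5887 lower under pressure, against 4347 and 4524 with TMM factors. Whether replicates are separate cultures or animals is not labelled, so errors and p-values cover the differences among these libraries alone, and these could be technical.

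Nfil3, the D-box repressor, had 61.5, 50.9 and 42.6 CPM in the 3 pressure libraries, against 5.05, 3.84 and 3.77 CPM in the 3 control libraries. Every pressure library lay above every control library, and the lowest pressure value came from replicate 3. The means were 51.65 ± 9.49 CPM under pressure and 4.22 ± 0.718 CPM in controls (SD, n = 3 each). The log2 fold change was 3.60 ± 0.169 (SE; 3.72 without pressure replicate 3), a 12.2-fold higher level, which ranked 54th from the top of 12892 genes. The spread in the pressure group was 18.4% of the mean, where counting error alone gives 3.58%. The gene lies on chromosome 13 from 52967209 to 52981073 on the minus strand (GRCm38, GENCODE M21), and no other annotated gene shares exonic bases with it.

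**Figure D1:**
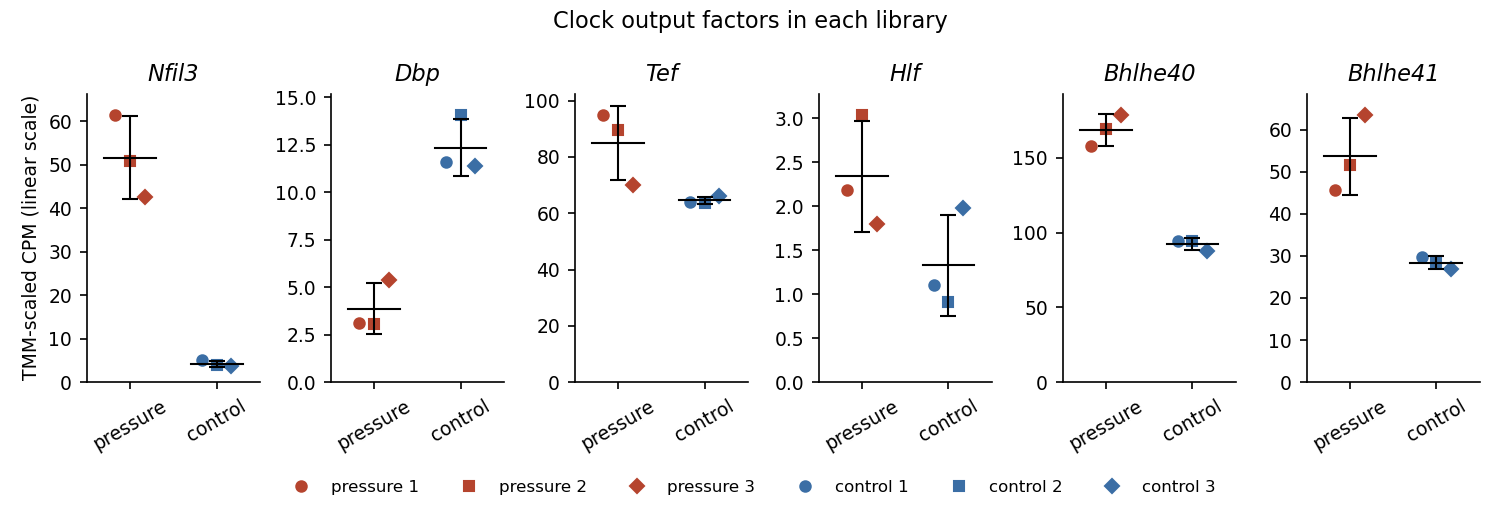
TMM-scaled CPM of each member (vertical axes, linear and starting at 0, one panel a gene) in the 3 pressure libraries and the 3 control libraries; points are libraries, with the shape giving the replicate number, and bars are the mean and SD. Nfil3 lies between 42.6 and 61.5 CPM under pressure and between 3.77 and 5.05 CPM in controls, Dbp lies the other way round, and Hlf is the member whose groups overlap.

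Dbp, the activator with the strongest daily rhythm in mouse liver, was the member that was lower. It had 3.12, 3.04 and 5.40 CPM in the pressure libraries, against 11.6, 14.1 and 11.4 CPM in the control libraries. The groups did not overlap, and pressure replicate 3 was the pressure library nearest to the controls. The means were 3.85 ± 1.34 CPM under pressure and 12.3 ± 1.51 CPM in controls (SD, n = 3 each), a log2 fold change of -1.72 ± 0.203 (SE), and without pressure replicate 3 it was -2.00. The level under pressure was thus 0.305 times that in controls, 511th from the bottom of all genes tested. In deposited counts these levels rest on 50.5, 50.5 and 66 counts under pressure and 231.5, 264.5 and 172 in controls. For 50 counts the exact 95% Poisson interval, which covers counting error only, is 37.1 to 65.9.

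Dbp overlaps the gene for sphingosine kinase 2 (Sphk2), which is transcribed from the opposite strand. Of the 2993 annotated exonic bases of Dbp (chromosome 7 from 45705088 to 45710203, plus strand), 539 also belong to Sphk2 exons. Sphk2 stood at 78.0, 83.9 and 102 CPM in the pressure libraries, against 62.95, 66.0 and 62.2 CPM in the control libraries. It rose by 0.46 ± 0.102 (log2, SE; adjusted p = 0.00212 in edgeR's quasi-likelihood test), the opposite direction to Dbp. How the counting divided reads of the shared bases is not given in the sources used here, and its part in the Dbp value was not tested.

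Tef, the activator with the highest level per length, had 94.96, 89.7 and 70.2 CPM in the pressure libraries, against 64.05, 63.6 and 66.1 CPM in the control libraries. The groups did not overlap, although pressure replicate 3 lay closer to the controls than to the other pressure libraries. The means were 84.95 ± 13.1 CPM under pressure and 64.6 ± 1.34 CPM in controls (SD, n = 3 each). The log2 fold change was 0.40 ± 0.108 (SE), and 0.52 without pressure replicate 3. With library totals in place of TMM factors it was 0.18 ± 0.102, while that setting moved the median of all genes by -0.213.

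Hlf, the third activator, was near the lower limit of testing. It had 35, 50 and 22 counts in the pressure libraries, against 22, 17 and 30 counts in the control libraries. As levels these were 2.18, 3.04 and 1.80 CPM under pressure and 1.10, 0.907 and 1.98 CPM in controls, so the highest control library lay above the lowest pressure library. The log2 fold change was 0.87 ± 0.317 (SE), and leaving out single libraries gave values between 0.63 (without pressure replicate 2) and 1.23 (without control replicate 3). For the 17 counts of control replicate 2 the exact 95% Poisson interval is 9.90 to 27.2, so a difference between single libraries of Hlf is poorly resolved at this depth.

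Set against the activators, Nfil3 changed from the lesser to the greater transcript. Levels of different genes are compared here only per kilobase of annotated exon. Nfil3 had 30.4, 25.1 and 21.0 CPM per kb in the pressure libraries, against 2.49, 1.90 and 1.86 CPM per kb in the control libraries. Dbp, Tef and Hlf together had 13.4, 12.9 and 11.0 CPM per kb in the pressure libraries, against 12.2, 12.9 and 12.5 CPM per kb in the control libraries. The summed activators thus averaged 12.4 ± 1.28 CPM per kb under pressure and 12.5 ± 0.376 CPM per kb in controls (SD, n = 3 each), and their groups overlapped.

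The ratio of Nfil3 to the summed activators was 2.26, 1.95 and 1.91 in the pressure libraries, against 0.204, 0.147 and 0.149 in the control libraries. Its mean was 2.04 ± 0.191 under pressure and 0.167 ± 0.0328 in controls (SD, n = 3 each). The size of the ratio depends on the lengths used: with the longest annotated coding transcript of each gene it was 1.16 ± 0.104 under pressure and 0.0965 ± 0.0189 in controls (an alternative chosen after seeing the data). With either length every pressure library lay above 1 and every control library below it. On the log2 scale, where lengths cancel between groups, Nfil3 minus the mean of the 3 activators differed by 3.74 between pressure and control.

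With TMM factors the makeup of the activator pool differed more than its sum. Shares within a library do not depend on the scaling, while the sum does. Dbp made up 7.75%, 7.89% and 16.4% of the summed activator level per kb in the pressure libraries, against 31.8%, 36.4% and 30.4% in the control libraries. Tef made up 89.8%, 88.6% and 81.1% under pressure and 66.9%, 62.6% and 67.3% in controls. Hlf contributed between 2.43% and 3.53% under pressure and between 1.05% and 2.37% in controls. With TMM factors the lower Dbp level and the higher Tef level were of similar size per kb. Dbp averaged 1.29 ± 0.449 CPM per kb under pressure and 4.125 ± 0.504 CPM per kb in controls (SD, n = 3 each). Tef averaged 10.8 ± 1.66 CPM per kb under pressure and 8.21 ± 0.171 CPM per kb in controls (SD, n = 3 each).

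**Figure D2:**
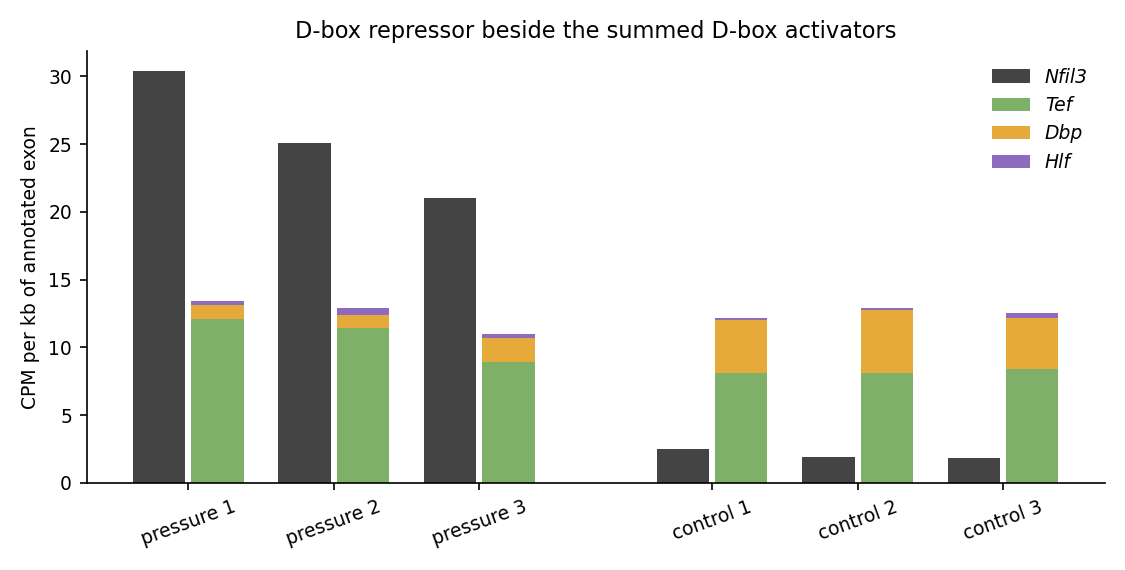
CPM per kb of annotated exon (vertical axis, linear) of Nfil3 beside the stacked activators Tef, Dbp and Hlf in each library. The Nfil3 bar is above the stack in the 3 pressure libraries (ratio 1.91 to 2.26) and below it in the 3 control libraries (ratio 0.147 to 0.204). With TMM factors, used here, the stack lies between 11.0 and 13.4 in all 6.

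Bhlhe40 and Bhlhe41, the E-box repressors, were both higher under pressure and by similar amounts. Bhlhe40 had 158, 169 and 179 CPM in the pressure libraries, against 94.7, 94.5 and 87.7 CPM in the control libraries. Bhlhe41 had 45.7, 51.7 and 63.5 CPM in the pressure libraries, against 29.8, 28.5 and 26.8 CPM in the control libraries. Neither gene's groups overlapped, and for both the highest pressure value came from replicate 3, the library with the lowest Nfil3 and Tef values and the highest Dbp value of its group.

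The log2 fold changes were 0.87 ± 0.0789 for Bhlhe40 and 0.91 ± 0.121 for Bhlhe41 (SE), 1.83-fold and 1.88-fold higher levels. Without pressure replicate 3 they were 0.83 for Bhlhe40 and 0.78 for Bhlhe41. The ratio of Bhlhe40 to Bhlhe41 per kb was 4.54 ± 0.472 under pressure and 4.65 ± 0.103 in controls (SD, n = 3 each), so the pair kept its proportion within the spread between libraries. Both genes lie on chromosome 6, Bhlhe40 from 108660629 to 108666925 on the plus strand and Bhlhe41 from 145858243 to 145865558 on the minus strand. An antisense gene, 0610040F04Rik, shares 118 exonic bases with Bhlhe40 and stood at 4.90 ± 0.254 CPM under pressure and 2.06 ± 0.376 CPM in controls (SD, n = 3 each). In the annotation 1280 exonic bases of Bhlhe41 and 193 of Tef also fall in an unlisted opposite-strand gene (Gm43909 and Gm17597), and those reads cannot be told apart without a stated strand setting.

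By level per kb, the order under pressure was Bhlhe40 (35.8), Nfil3 (25.5), Tef (10.8), Bhlhe41 (7.98), Dbp (1.29) and Hlf (0.350). In controls it was Bhlhe40 (19.6), Tef (8.21), Bhlhe41 (4.22), Dbp (4.125), Nfil3 (2.08) and Hlf (0.199). Nfil3 thus ranked 2 of 6 under pressure and 5 of 6 in controls. Tef and Bhlhe41 overlapped between libraries under pressure, Bhlhe41 and Dbp overlapped in controls, and the other neighbours in either order did not overlap. The orders and overlaps depend on the lengths used, here those of annotated exons. The longest coding transcript has 1837 bases for Dbp, against 2993 exonic bases, and 6133 for Bhlhe41, against 6720. With those transcript lengths Dbp lies above Bhlhe41 in controls.

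**Figure D3:**
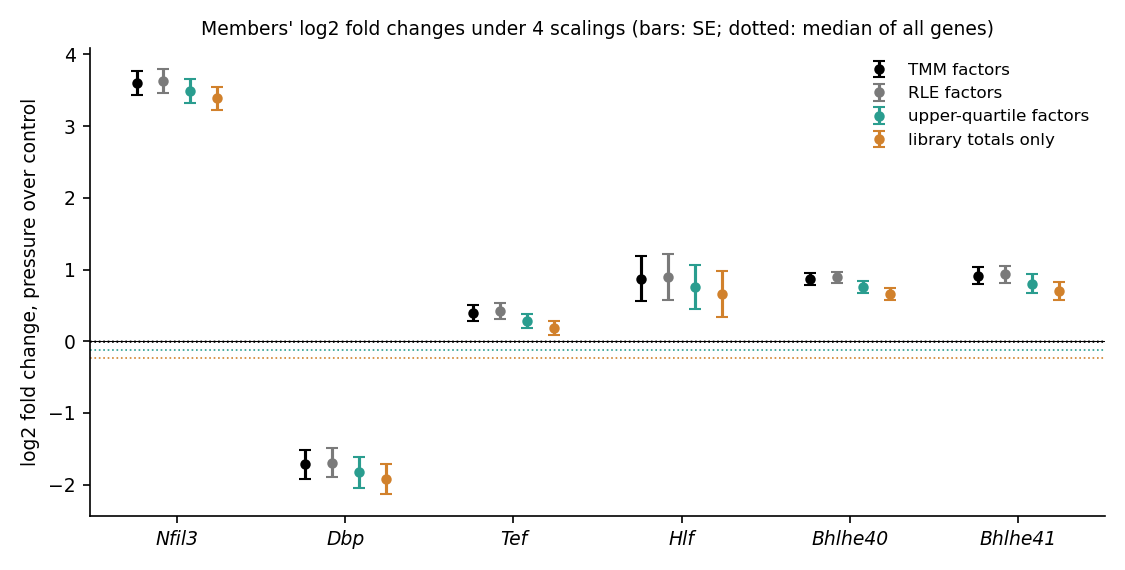
Log2 fold change of each member, pressure over control (vertical axis), under TMM, RLE and upper-quartile factors and with library totals only; bars are SE and dotted lines are the median of all genes tested. The sign of all 6 members is the same under the 4 scalings, and Tef comes nearest to 0, at 0.18 with library totals only.

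**Figure D4:**
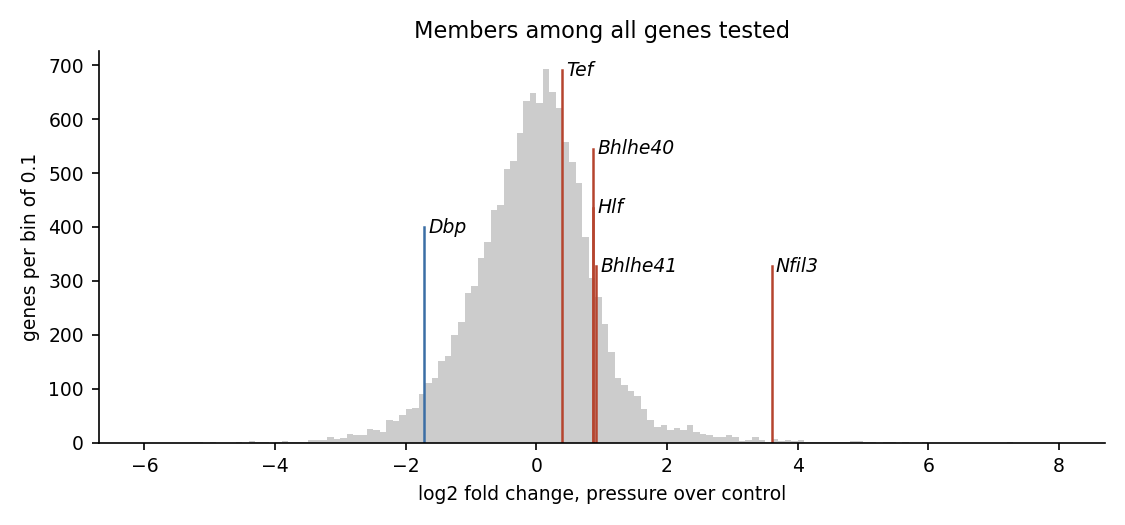
Distribution of log2 fold changes, pressure over control (horizontal axis), of the 12892 genes tested, as genes per bin of 0.1, with a line at each member. Nfil3 (3.60) and Dbp (-1.72) lie towards opposite ends, and Tef, Hlf, Bhlhe40 and Bhlhe41 lie between 0.40 and 0.91.

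The genes nearest to each member in pattern were found by the root mean square difference between log2 CPM profiles over the 6 libraries, each centred on its control mean, among genes with a mean of at least 5 CPM and a named symbol. Nearest to Nfil3 were Gcm1 (0.258 log2 units), Phlda1 (0.259) and Igfbp3 (0.314), all of which were also far higher under pressure; Phlda1 averaged 78.25 CPM under pressure and 5.96 CPM in controls. Nearest to Dbp were l7Rn6 (0.068), Mpst (0.0964) and Dhrs3 (0.101), a retinal reductase gene that averaged 172 CPM under pressure and 520.0 CPM in controls. Nearest to Tef of 9726 genes was Nr1d2 (0.0285), which encodes the clock repressor REV-ERBβ, followed by Zfp207 (0.0295) and Usp47 (0.0297), which were almost as near.

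For Bhlhe40 the nearest were Mrpl46 (0.0403), Traf2 (0.0409) and Polr2d (0.0437), and for Bhlhe41 Hadh (0.0513), Otud1 (0.0557) and Nop56 (0.0696). For Hlf, Ahnak (0.232), Alg10b (0.234) and Osbpl8 (0.239) came first. The nearest genes of Nfil3 and Hlf were thus further away than those of the other 4 members. Nfil3 ranked 54th from the top, where few genes are available for comparison. For Hlf, counting error alone was 16.7% under pressure and 20.85% in controls. Nothing is read from these larger distances. All 18 of these genes were also among the nearest 3 when libraries were scaled by their totals. A change of scaling moves all genes of a library by nearly the same log2 amount, which cancels in a difference between genes. This result was therefore fixed by the measure and says nothing about how stable the nearest genes are.

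Among 15 core clock genes, 11 had enough counts to test, and 7 were higher and 2 lower, with a median log2 change of 0.41 beside -0.015 over all genes tested. Of all genes tested, 33.7% were higher and 35.1% lower. The lists were chosen with earlier results of these data known, so nothing is read from their counts. Among the 7, the call of Cry1 (0.26 ± 0.0945, SE) was lost in 8 of 14 alternative settings. With library totals in place of TMM factors, 5 of the 11 were higher. Arntl, which encodes BMAL1, had 77.4, 76.6 and 77.3 CPM in the pressure libraries, against 14.5, 13.3 and 15.9 CPM in the control libraries, and rose by 2.41 ± 0.0919 (log2, SE; adjusted p = 3.73e-08, edgeR). Ciart, a repressor of CLOCK and BMAL1, rose by 1.95 ± 0.155 (adjusted p = 1.96e-06, edgeR) and Cry2, a cryptochrome repressor, by 1.43 ± 0.135 (adjusted p = 6.08e-06, edgeR). Per3, a period gene, fell like Dbp: it had 3.12, 3.77 and 2.62 CPM in the pressure libraries, against 12.5, 9.55 and 11.7 CPM in the control libraries (log2 fold change -1.81 ± 0.172; adjusted p = 6.35e-06, edgeR). The groups did not overlap for any of these 4 genes. They were named for the smallest p among the called genes of the list, so their adjusted p-values are a description and not independent tests. The other period genes went the opposite way to Per3: Per1 rose by 0.98 ± 0.133 and Per2 by 0.94 ± 0.158 (log2, SE). The other core clock gene called lower was Nr1d1, which encodes REV-ERBα. It averaged 39.5 ± 3.61 CPM under pressure and 56.5 ± 3.91 CPM in controls (SD, n = 3 each), a log2 fold change of -0.52 ± 0.0951 (SE). Nr1d2, the REV-ERBβ gene, rose by 0.41 ± 0.105 (log2, SE), a call lost with library totals only. Clock itself stood at 128 ± 29.2 CPM under pressure and 130 ± 15.7 CPM in controls (SD, n = 3 each; adjusted p = 0.941, edgeR).

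Of 8 genes for kinases and ubiquitin ligase subunits that mark clock proteins for turnover, 7 were tested. Of these, 3 were higher and 1 lower, beside 33.7% and 35.1% of all genes tested, with a median of 0.088. Fbxw11 (0.98 ± 0.0909), Gsk3b (0.73 ± 0.0976) and Csnk1d (0.65 ± 0.0948), the casein kinase 1 δ gene, rose, and Btrc, which like Fbxw11 encodes a β-TrCP subunit, fell (-0.92 ± 0.107). Among 9 other clock-controlled output genes, 4 were higher and 2 lower, with a median of 0.11. Leo1, a subunit gene of the PAF1 elongation complex, averaged 72.2 ± 11.2 CPM under pressure and 26.6 ± 0.534 CPM in controls (SD, n = 3 each), and Cdkn1a, the cell cycle inhibitor p21, averaged 1115 ± 174 CPM under pressure and 577 ± 3.07 CPM in controls. Fkbp5, a chaperone gene induced by glucocorticoids, fell (-0.935 ± 0.117), as did Tspan4 (-0.465 ± 0.0908). With library totals only, 2 of the 9 were higher and 4 lower, and with upper-quartile factors 4 were higher and 4 lower.

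Reported targets of the D-box factors, several of which are hepatocyte genes, often had too few counts to test. Of 10 such genes 4 had enough counts to test. Of these, 1 was higher and 1 lower, beside 33.7% and 35.1% of all genes tested, with a median of -0.071. Por, the electron donor of cytochrome P450 enzymes, stood at 395 ± 29.4 CPM under pressure and 430 ± 34.1 CPM in controls (SD, n = 3 each; adjusted p = 0.214, edgeR), and passed as lower in 3 of 14 alternative settings. Alas1, the first enzyme of heme synthesis, had 80.25, 81.1 and 77.8 CPM in the pressure libraries, against 98.7, 95.5 and 96.3 CPM in the control libraries, and fell (-0.28 ± 0.071; adjusted p = 0.00488, edgeR). Nr1i3, the xenobiotic receptor CAR, was at 1.27 ± 0.0862 CPM under pressure and 0.744 ± 0.0902 CPM in controls (SD, n = 3 each), and its call as higher was lost in 6 of the 14 settings, while 1 setting left it untested. Pdxk, pyridoxal kinase, stood at 98.7 ± 5.71 CPM under pressure and 100.1 ± 4.76 CPM in controls (SD, n = 3 each). The classical targets Cyp2b10 and Cyp7a1 had no count in any library.

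**Figure D5:**
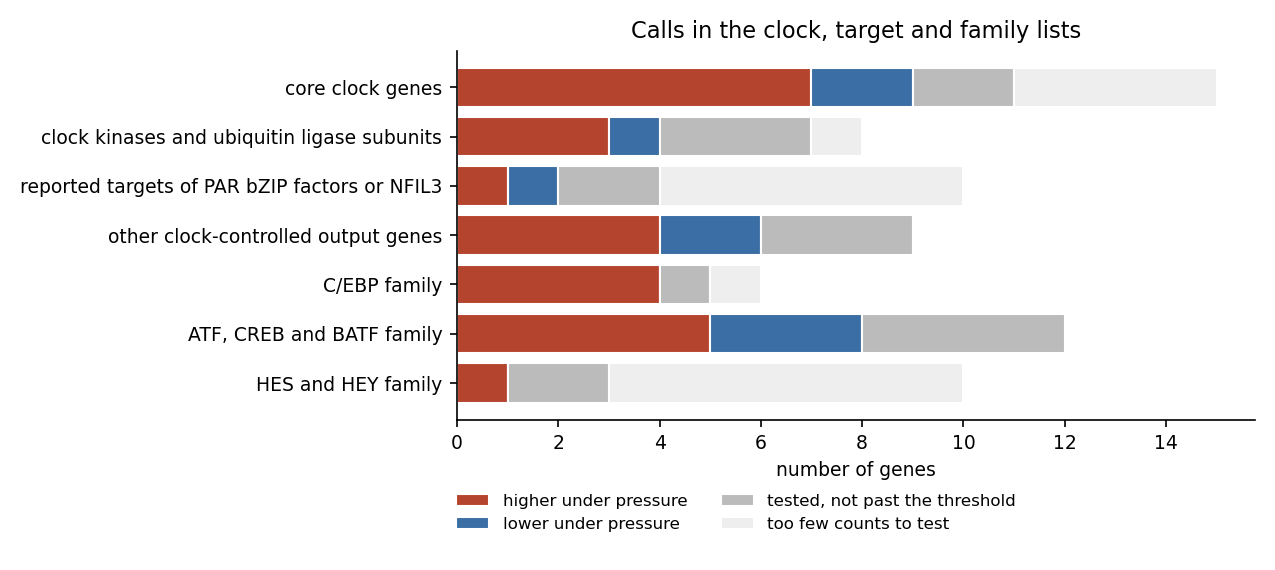
Number of genes (horizontal axis) of each clock, target and family list that passed an adjusted p of 0.05 as higher or lower under pressure, that were tested and did not pass, or that had too few counts. Over all genes tested, 33.7% were higher and 35.1% lower.

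NFIL3 and the activators belong to the basic leucine zipper proteins, and relatives of both were compared. In the C/EBP family 5 of 6 genes were tested, and 4 were higher and 0 lower, beside 33.7% and 35.1% of all genes tested. Their median was 0.65. Cebpb, a mediator of the acute phase response, had 137.5, 129 and 180 CPM in the pressure libraries, against 50.9, 51.8 and 44.0 CPM in the control libraries (log2 fold change 1.60 ± 0.128; adjusted p = 1.98e-06, edgeR). Ddit3, the stress factor CHOP, rose by 1.39 ± 0.155, Cebpd by 0.65 ± 0.164 and Cebpa by 0.55 ± 0.089. Cebpg was the tested member that did not pass (-0.14 ± 0.0697), and it passed as lower with upper-quartile factors and with library totals only. No C/EBP gene had as large a change as Nfil3. Nothing is read from this, because Nfil3 was already known to be among the largest rises.

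Of 12 ATF, CREB and BATF genes all were tested, and 5 were higher and 3 lower, beside 33.7% and 35.1% of all genes tested. Their median was 0.078. Atf4, the effector of the integrated stress response, averaged 1520.0 ± 81.45 CPM under pressure and 612 ± 29.0 CPM in controls (SD, n = 3 each). Atf6, an endoplasmic reticulum stress sensor, rose by 1.61 ± 0.137, Atf3 by 1.06 ± 0.0777 and Atf1 by 0.86 ± 0.0786. The fifth call as higher, Atf2 (0.22 ± 0.0841), was lost in 9 of the 14 settings. The 3 lower genes were Batf (-1.72 ± 0.221), Creb1 (-1.01 ± 0.103) and Crem (-0.44 ± 0.0924). Among 10 HES and HEY genes, the repressors of the Notch pathway that resemble BHLHE40 and BHLHE41 in structure, 3 were tested, with a median of -0.16. Hey1, at 3.92 ± 0.902 CPM under pressure and 2.69 ± 0.371 CPM in controls (SD, n = 3 each), passed as higher, and that call was lost in 8 of the 14 settings.

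The labelled cell type and other cell types of the liver were checked by marker lists, since fewer cells of a type and less RNA per cell cannot be told apart in bulk RNA. All 9 sinusoidal endothelial markers were detected, with summed levels of 5339 to 6475 CPM in pressure libraries and 7281 to 7769 CPM in control libraries. Of the 9, 6 fell while 0 rose, where 35.1% of all genes tested were lower and 33.7% higher. Macrophage markers, all 7 detected, summed to 4577 to 4962 CPM under pressure and 4807 to 5229 CPM in controls, and 2 of the 7 rose while 2 fell. Hepatocyte markers summed to 13.7 to 17.4 CPM under pressure and 6.80 to 9.69 CPM in controls, with both tested markers, Alb and Apoa1, higher and 1 of the 7 at 0. Dendritic cell markers summed to 26.5 to 29.4 CPM under pressure and 44.9 to 51.0 CPM in controls. Of the 4 tested dendritic cell markers, Clec9a was lower (1.43 CPM under pressure and 19.5 CPM in controls), Xcr1 was higher (1.16 CPM under pressure and 0.281 CPM in controls), and Zbtb46 and Itgax did not pass. Lymphocyte and natural killer cell markers summed to 1.87 to 2.87 CPM under pressure and 2.19 to 3.45 CPM in controls. Of the 2 tested ones, Gzmb was higher (1.59 CPM under pressure and 0.536 CPM in controls) and Klrb1c lower (0.259 CPM under pressure and 0.712 CPM in controls). NFIL3 is needed in mice for the development of natural killer cells and of one dendritic cell lineage, so these lists are the ones nearest to Nfil3. Stellate cell markers summed to 157 to 174 CPM under pressure and 139 to 149 CPM in controls, and cholangiocyte markers to 2.99 to 4.67 CPM under pressure and 1.60 to 2.13 CPM in controls. Neutrophil markers summed to 4.11 to 5.57 CPM under pressure and 8.85 to 10.9 CPM in controls, nearly all of it from Csf3r (4.55 CPM under pressure and 9.56 CPM in controls), while S100a9 and Retnlg were at 0 in all 6 libraries. The part of these cell types in the members' values was not tested.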

How the data were processed

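Polyadenylated RNA from 3 pressure and 3 control samples was sequenced as single reads of 101 bases after a stranded mRNA kit. The build mm10 and the programs TopHat2 2.2.1 and Cufflinks 2.2.1 appear in the submitters' processing notes without roles. How reads were counted, with which strand setting and on which annotation, is not given in the sources used here. For each gene symbol the authors deposited an expected count, not always whole (18.22% to 21.67% of detected genes had a fraction), which was rounded before testing.

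Genes passed filterByExpr (minimum count 10, minimum total 15), libraries were scaled by TMM factors, and edgeR 4.0.16 (R 4.3.3) tested pressure against control with two-sided quasi-likelihood F-tests without covariates, adjusted by Benjamini-Hochberg over all 12892 genes. The SE is the log2 fold change divided by the square root of F. Members and lists were chosen with earlier results of these data known. The adjusted p-values printed for list genes and for Sphk2 are therefore a description of this comparison and not independent tests. Of each list, up to 4 called genes with the smallest p are named, or the 2 most abundant if none was called. Clock, Cry1, Por, Pdxk, Cyp2b10, Cyp7a1, Cebpg, Atf2, the overlapping genes and single marker genes were named after their values were seen. So were Per1, Per2, Nr1d1, Nr1d2, Batf, Creb1 and Crem. Alternatives were DESeq2 1.42.0, limma-voom (limma 3.58.1), other scalings and filters, the sample number as a block, and leaving out each library. No 2 libraries of a group agreed within sampling noise (chi-square per degree of freedom at least 3.07). Exonic lengths came from GENCODE M21 (GRCm38, the build named mm10), promoters from RefSeq (GRCm38.p6), and Poisson intervals from scipy 1.17.1.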

Additional observations from a re-analysis of the deposited data

How the results depend on the processing

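The direction of all 6 members held in the 14 alternative fits. Some list genes that had not passed changed sign, such as Clock and Pdxk in 5 of the 14 fits each. With library totals only, which moves the median of all genes by -0.213, 3 members passed as higher instead of 5: Tef (0.18) and Hlf (0.66) no longer passed. The same setting gave 16 list genes lower instead of 9. Hlf also lost its call without control replicate 1, control replicate 2 or pressure replicate 2, and leaving out single libraries gave log2 fold changes of 0.63 to 1.23. The cause was not tested. The ratio of Nfil3 to the summed activators per kb changed with the length used (1.16 under pressure and 0.0965 in controls with the longest coding transcript). The log2 ratio of Nfil3 to the mean activator kept a difference of 3.58 to 3.92 when single libraries were left out and of 3.76 with a prior count of 0.5. No label says whether the sample numbers of the 2 groups pair the samples. Deviations from the group means correlated at 0.129, -0.23 and -0.134 for equal numbers and between -0.17 and 0.292 for unequal numbers. Deviations sum to 0 within a group of 3 and so depend on each other, and these correlations cannot decide the pairing. With the sample number as a replicate block Nfil3 gave 3.61 and Dbp -1.72, with 4069 genes higher and 4315 lower. Counts of 17 to 50 for Hlf and 50.5 to 66 for Dbp under pressure limit what can be said of single libraries.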
